A study of Mus musculus with 2 samples.

Results

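Notch receptors, their ligands and their target genes were followed through the vascular, mesenchymal and epithelial cells of the postnatal mouse molar. The set holds 9 genes of the 34285 in the count tables, chosen by symbol from a list of names: the receptors Notch1, Notch2 and Notch3, the ligands Jag1 and Dll4, and the targets Hes1, Hey1, Hey2 and Heyl. Each symbol matched 1 row in both libraries. Mandibular first molars with the tissue around them were taken from C57BL/6J mice at PN15.5 (PN, postnatal day), dissociated with Dispase and Collagenase I, and profiled by 10x Genomics single-cell RNA sequencing. The Lipo-Clo library came from mice injected intraperitoneally with clodronate liposomes, a macrophage-depleting agent, at 40 μg/g, first on PN3.5, again on PN6.5 and PN9.5, and last on PN12.5. The Lipo-PBS library came from mice given vehicle liposomes. Both carry the same batch number in the labels, and how many mice each library holds, and of which sex, is not given in the sources used here. With 1 library per condition there is no replicate check, so no test was made. All intervals below are 95% exact intervals that cover counting error only.

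Counts were of unique molecular identifiers (UMIs), each standing for 1 captured RNA molecule. The libraries held 31053404 (Lipo-Clo) and 30537834 (Lipo-PBS) UMIs in 9362 and 9653 cells, of which 8254 and 8261 were kept, with medians of 2567 and 2678 UMIs. The libraries shared 30 cell barcodes, 23 of them among kept cells. Mitochondrial genes took 0.37% of the Lipo-Clo UMIs and 1.73% of the Lipo-PBS UMIs. Of the kept cells, 116 were macrophage-like in Lipo-Clo, and Lipo-PBS had 168. Clusters were formed without the 9 genes and without the other 44 genes of the Notch pathway list. Comparisons were made in 4 compartments, each "-like" in the sense that marker genes named it, and every marker was detected in both libraries: endothelium (407 Lipo-Clo and 477 Lipo-PBS cells, 10 markers), perivascular cells (410 and 575, 10 markers), dental mesenchyme (3879 and 3836, 10 markers) and epithelium (827 and 707, 12 markers). A cluster led by Acta2, Mfap5 and Tagln stood apart, with 11 Lipo-Clo and 728 Lipo-PBS cells carrying endothelial, perivascular, macrophage and epithelial markers together. It stayed unnamed and outside the compartments, and it held 12.2% of the Lipo-PBS library's Notch3 UMIs and 27.7% of its Dll4 UMIs.

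Notch signalling works by contact: a ligand of the Jagged or Delta-like family on one cell binds a Notch receptor on its neighbour, proteases release the receptor's intracellular domain, and this joins the DNA-binding protein Rbpj to switch on Hes and Hey genes, which encode transcriptional repressors. In blood vessels the pathway is known for the choice between tip and stalk cells and for the maturation of mural cells, the pericytes and smooth muscle that wrap the endothelium. In the developing tooth it is known for patterning the enamel epithelium and for its activity in dental pulp and periodontal progenitors.

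The Rbpj complex is known to bind the sequence GTGGGAA, and the 250 bases before the start of each gene in RefSeq (GRCm38.p6) were searched for it on both strands. An entry was found for 6 of the 9 genes (Notch1, Notch2, Notch3, Jag1, Dll4 and Hey2). The motif lay in 1 of these windows, that of Hey2, 207 bases before the start, where it reads TTCCCAC on the gene's strand. Of all 32851 windows searched, 1779 (5.42%) held it. The shorter TGGGAA, which the longer motif contains, lay in 7094 (21.6%) and in none of the other 5 windows. The Hey2 window is shown because it holds the match, in capitals. The Notch3 window is shown because Notch3 and Hey2 were both highest in the perivascular compartment, as described below. Hey2 is given at chr10:30842934-30843033 and Notch3 at chr17:32166891-32167000, both on the minus strand. A match describes letters and not a bound site.
Hey2: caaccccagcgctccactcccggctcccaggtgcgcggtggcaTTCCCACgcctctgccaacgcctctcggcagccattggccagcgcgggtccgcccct
Notch3: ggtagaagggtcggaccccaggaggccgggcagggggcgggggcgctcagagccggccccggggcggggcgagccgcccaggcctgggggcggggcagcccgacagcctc

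Among the 4 compartments, each of the 3 receptors was highest in a different one. Levels are UMIs summed over a compartment's cells and given as CPM (counts-per-million, the share of the compartment's UMIs on the usual scale). Notch3, the receptor known from pericytes and vascular smooth muscle, stood at 944 CPM (877 to 1015) in Lipo-Clo and 715 CPM (670 to 763) in Lipo-PBS perivascular cells. Elsewhere it was between 7.89 and 22.1 CPM in Lipo-Clo and between 12.2 and 21.9 CPM in Lipo-PBS over the other 3 compartments. The perivascular level was 42.7-fold (32.6 to 56.9) that of the epithelium in Lipo-Clo and 39.5-fold (28.9 to 55.4) in Lipo-PBS. Perivascular cells held 65.9% of all Notch3 UMIs in Lipo-Clo and 59.1% in Lipo-PBS. Below the perivascular cells, neighbours in the order of Notch3 levels had overlapping intervals throughout, so that order was not resolved.

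In single cells the same gene was seen in 74.4% (69.9 to 78.5) of Lipo-Clo and 73.7% (69.9 to 77.3) of Lipo-PBS perivascular cells, at median depths of 1503.5 and 1838 UMIs. When each cell was thinned to 1000 UMIs, leaving out 88 and 69 shallower cells, the shares were 54.7% and 54.2%. Erythroid cells, which should lack Notch3, showed it in 1.70% and 0.515% of thinned cells, which serves as the background. The perivascular shares lay far above it, while the mesenchymal shares of 2.05% and 1.92% had intervals that overlapped the erythroid ones.

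Notch1, the receptor that endothelial cells use in sprouting, was highest in the endothelium. It stood at 197 CPM (164 to 235) in Lipo-Clo and 187 CPM (160 to 217) in Lipo-PBS, against 76.0 and 69.4 CPM in perivascular cells. The endothelial level was 2.60-fold (1.89 to 3.60) and 2.69-fold (2.07 to 3.52) the perivascular one. The epithelium followed with 36.9 and 51.2 CPM, and the mesenchyme came last of the 4 with 14.0 and 17.8 CPM. Among the other classes, glia-like cells stood at 89.0 and 89.7 CPM, with intervals that overlapped those of the perivascular cells. A UMI of Notch1 was seen in 25.1% and 24.9% of endothelial cells, and in 16.7% and 15.8% once thinned, against 0.567% and 0.515% of thinned erythroid cells.

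Notch2 was the broadest of the receptors and the one with the smallest gap between compartments. The mesenchyme stood at 263 CPM (254 to 272) in Lipo-Clo and 220.1 CPM (212 to 229) in Lipo-PBS, and the epithelium at 177 and 189 CPM. The mesenchymal level was 1.49-fold (1.35 to 1.64) and 1.16-fold (1.05 to 1.29) the epithelial one. Perivascular cells stood at 184 and 121 CPM, and the endothelium was lowest of the 4 at 63.2 and 87.9 CPM. The order among all classes differed between the libraries: mesenchyme led in Lipo-Clo, while neutrophil-like cells led in Lipo-PBS with 264 CPM (225 to 308). That interval overlapped those of the dendritic-like cells at 251 CPM and of the mesenchyme, so the lead in Lipo-PBS was not resolved. Mesenchyme held 58.8% of the Notch2 UMIs in Lipo-Clo and 53.8% in Lipo-PBS. These shares reflect its size as well as its level. Of the UMIs of all genes in kept cells, it held 12720674 of 26852424 in Lipo-Clo and 12358782 of 25831678 in Lipo-PBS.

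**Figure D1:**
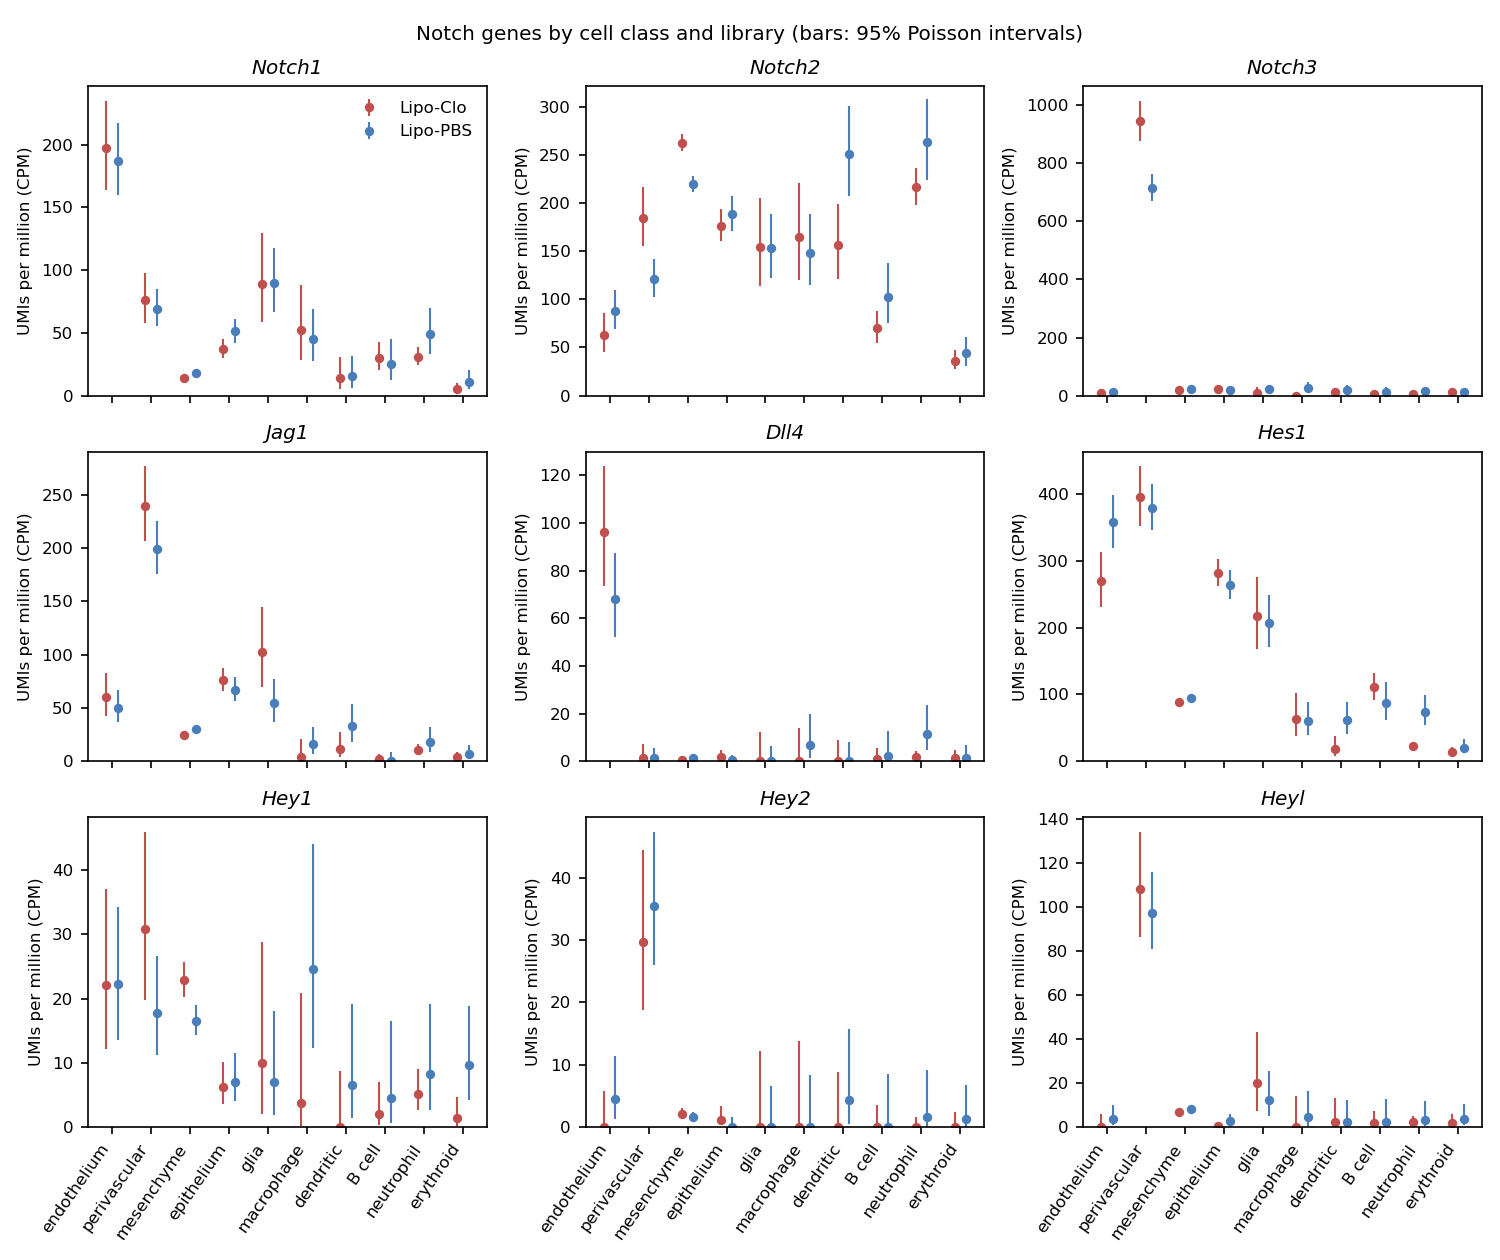
Level of each of the 9 genes (vertical axes, CPM) in the 4 compartments and 6 further cell classes (horizontal axis), with 1 point per library and 95% exact Poisson bars. Notch3 stands at 944 and 715 CPM in perivascular cells and at or under 26.9 CPM in the other classes, and Dll4 at 96.3 and 67.9 CPM in the endothelium.

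The fourth receptor, Notch4, is known as an endothelial gene and belongs to the pathway list rather than to the 9. It was counted here to close the receptor family: 78.9 CPM (58.6 to 104) in Lipo-Clo endothelium and 36.7 CPM (25.3 to 51.6) in Lipo-PBS endothelium, and at most 2.58 CPM in any other compartment. Expressed as shares of the UMIs of all 4 receptors, Notch3 made up 78.2% of the perivascular receptor UMIs in Lipo-Clo and 78.9% in Lipo-PBS. Notch2 made up 88.8% and 84.4% in the mesenchyme and 74.3% and 72.5% in the epithelium. The endothelium was mixed, with Notch1 at 56.8% and 57.7%, Notch2 at 18.2% and 27.1%, and Notch4 at 22.7% and 11.3%. These are shares of captured molecules, and how well each gene was captured is not known here. They thus compare compartments and not amounts of the receptors.

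**Figure D2:**
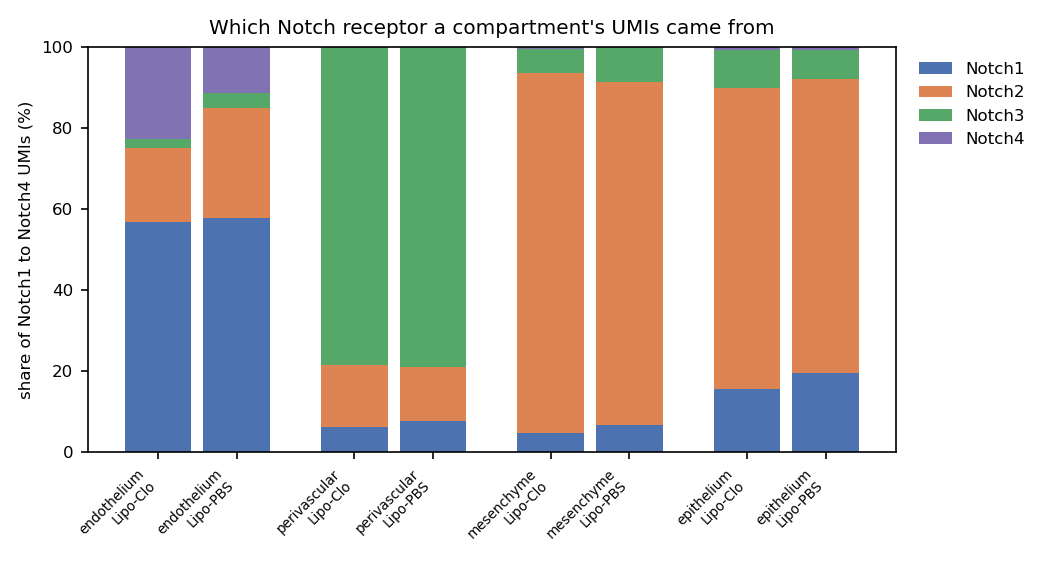
Share of each receptor (vertical axis, percent of the summed Notch1 to Notch4 UMIs) in each compartment and library (horizontal axis, 1 stacked bar each). Notch3 fills 78.2% and 78.9% of the perivascular bars and Notch2 88.8% and 84.4% of the mesenchymal bars, while the endothelial bars are split between Notch1, Notch2 and Notch4.

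The ligands were split between the inner and outer vessel layers. Dll4, the Delta-like ligand of endothelial tip and arterial cells, was counted 61 times in the endothelium of each library, giving 96.3 CPM (73.7 to 124) in Lipo-Clo and 67.9 CPM (51.9 to 87.2) in Lipo-PBS. Perivascular cells held 1 and 2 Dll4 UMIs, which puts the endothelial level at 74.8-fold (12.9 to 3001) and 44.0-fold (11.7 to 371) the perivascular one. Endothelium held 72.6% of the Dll4 UMIs in Lipo-Clo and 46.9% in Lipo-PBS, where the unnamed cluster led by Acta2 held the 27.7% given above. Among thinned cells Dll4 was seen in 9.62% and 6.21% of endothelial cells and in 0 of 353 and 0 of 194 erythroid cells, which under a floor of 3 cells allows shares with a UMI of up to 0.85% and 1.55%.

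Jag1, the Jagged ligand known from smooth muscle and from the epithelium of many organs, was highest in perivascular cells. It stood at 239.6 CPM (206 to 277) in Lipo-Clo and 199 CPM (175 to 225) in Lipo-PBS, and among the 4 compartments it was next in the epithelium, at 76.1 and 67.1 CPM. The perivascular level was 3.15-fold (2.56 to 3.87) and 2.97-fold (2.42 to 3.65) the epithelial one. Endothelium held 38 and 45 UMIs of Jag1, or 60.0 CPM (42.5 to 82.4) and 50.1 CPM (36.5 to 67.0), with intervals overlapping those of the epithelium. Mesenchyme stood at 24.8 CPM (22.1 to 27.7) and 29.8 CPM (26.8 to 33.0), with intervals below those of the endothelium. Outside the 4, glia-like cells stood at 102 and 54.5 CPM, with intervals that overlapped the epithelial ones.

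The remaining ligands Jag2 and Dll1 of the pathway list were also read. Jag2 stood at 93.2 and 44.5 CPM in the endothelium and at 67.1 and 79.9 CPM in the epithelium, with at most 2.58 CPM in perivascular cells and mesenchyme. Dll1 stood at 41.1 and 18.9 CPM in the endothelium and at 10.5 CPM or less elsewhere. The fringe genes encode sugar transferases that tune which ligands a receptor answers to. Mfng stood highest in the endothelium, with 38 and 30 UMIs, and had 0 UMIs in the perivascular cells of both libraries, which under a floor of 3 UMIs per library allows up to 3.86 CPM (Lipo-Clo) and 2.31 CPM (Lipo-PBS). Lfng stood at 37.9 and 24.5 CPM in the endothelium and 19.0 and 6.62 CPM in the epithelium, and Rfng between 3.34 and 13.3 CPM in all 4 compartments.

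Hes1, the target gene with the widest use in development, was counted in every compartment. Perivascular cells stood at 395 CPM (352 to 442) in Lipo-Clo and 379.6 CPM (347 to 415) in Lipo-PBS. The endothelium stood at 270.0 CPM (231 to 314) and 358 CPM (320 to 399.6), and the epithelium at 282 and 264 CPM. The perivascular level was 1.46-fold (1.21 to 1.78) the endothelial one in Lipo-Clo and 1.06-fold (0.919 to 1.22) in Lipo-PBS, so this pair was not resolved in the Lipo-PBS library. Mesenchyme stood lowest of the 4 at 89.3 and 94.3 CPM, above the 13.7 and 20.4 CPM of erythroid cells.

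The Hey genes were sparser and more restricted. Heyl stood at 108 CPM (86.3 to 134) in Lipo-Clo and 97.2 CPM (81.0 to 116) in Lipo-PBS perivascular cells, 15.8-fold (11.6 to 21.6) and 11.8-fold (9.0 to 15.4) the mesenchymal levels of 6.84 and 8.25 CPM. Hey2 stood at 29.6 CPM (18.8 to 44.4) and 35.5 CPM (26.0 to 47.3) in perivascular cells. It had 0 UMIs in the Lipo-Clo endothelium and 4 in the Lipo-PBS endothelium. With that 0 set to a floor of 3 UMIs, the perivascular level was 6.25-fold the endothelial one in Lipo-Clo. The lower limit of the exact interval there was 4.69-fold. In Lipo-PBS the perivascular level was 7.97-fold (2.91 to 30.5) the endothelial one. Heyl likewise had 0 and 3 UMIs in the endothelium.

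Hey1 had no leading compartment. It stood at 30.9, 22.1 and 22.9 CPM in the perivascular cells, endothelium and mesenchyme of Lipo-Clo, and at 17.7, 22.2 and 16.5 CPM in those of Lipo-PBS. The perivascular level was 1.40-fold (0.695 to 2.92) and 0.797-fold (0.419 to 1.53) the endothelial one, and the order of these 3 was not resolved. The epithelium was lower, at 6.21 and 7.06 CPM. Counting each gene in each library, the leading compartment of the pooled libraries led in 17 of 18 cases, and the exception was Hey1 in Lipo-PBS. The pool is made of these same libraries, so the count is a description and no independent check. It also includes leads that were not resolved, those of Hes1 in Lipo-PBS and of Hey1 in Lipo-Clo.

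Within the perivascular cells the receptor and its targets were spread over several subclusters. Subclusters are named by marker genes where these allow and otherwise by their 3 leading genes. Notch3 was highest in a subcluster led by Gpc6, Dlc1 and Sox5, at 1573 CPM (Lipo-Clo) and 1410 CPM (Lipo-PBS), from 58 and 77 cells. These cells were shallow, with medians of 981 and 1110 UMIs, against 1349 and 1604 in the pericyte-like subcluster. The part of depth in this level was not tested. The pericyte-like subcluster (186 and 173 cells) followed at 1083 and 923 CPM, and the larger smooth muscle-like subcluster (51 and 137 cells) stood at 861 and 697 CPM. Heyl stood at 149 and 124 CPM in the pericyte-like and 89.4 and 105 CPM in the smooth muscle-like subcluster. Hes1 stood at 308 and 480 CPM in the pericyte-like and at 593 and 552 CPM in the smooth muscle-like subcluster. Between these pericyte-like and smooth muscle-like cells, the intervals of Heyl overlapped in both libraries, those of Notch3 in Lipo-Clo and those of Hes1 in Lipo-PBS. Jag1 stood at 304 and 219 CPM in the pericyte-like and 301 and 280.5 CPM in the smooth muscle-like subcluster.

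Within the endothelium, Dll4 and Notch1 were highest in the same subcluster, although its intervals overlapped those of the next. In the subcluster led by Plcb1, Ptprg and Arl15, Dll4 stood at 197 and 134 CPM (20 and 17 UMIs) and Notch1 at 316 and 229 CPM. The cells of that subcluster were shallow, with medians of 895 and 1031 UMIs, and the part of depth in these levels was not tested. In the subcluster led by Ly6c1, Rgcc and Cd81, Dll4 stood at 94.9 and 99.4 CPM and Notch1 at 178 and 221 CPM. The lymphatic-like subcluster (25 and 71 cells) had Notch1 at 284 and 205 CPM, but Dll4 at 34.1 and 28.3 CPM, from 3 and 8 UMIs. It also held the endothelium's highest Notch2, at 239 and 156 CPM, so that Notch2 made up 45.7% and 41.1% of its receptor UMIs, while its Notch4 UMIs were 0 of 46 and 0 of 107.

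In the mesenchyme, Notch2 ran from 75.2 and 71.4 CPM in odontoblast-like cells, the makers of dentin, to 1346 CPM (1247 to 1450.3) and 1088 CPM (975 to 1209) in a subcluster led by Ctnnd2, Cntn4 and Dok6. The latter (373 Lipo-Clo and 187 Lipo-PBS cells) also had the mesenchyme's highest Hes1, at 494 and 302 CPM, and its highest Hey1, at 113 and 143 CPM. Fibroblast-like cells stood at 265 and 257 CPM of Notch2, dental follicle-like cells at 186 and 156 CPM, and osteoblast- or cementoblast-like cells at 148 and 132 CPM. The Ctnnd2-led subcluster also had other features, and Malat1 in the other subclusters is not given here. Its cells were shallow, with medians of 1168 and 1388 UMIs, and the nuclear RNA Malat1 stood at 51118 and 51636 CPM. Its 10 leading genes had a median genomic span of 394 kb, against 13.7 kb over 29636 genes (GENCODE M21), and Notch2 at 137 kb is the longest of the 9 genes. The part of these features in the levels was not tested. A subcluster led by Plac9, Col4a1 and Itm2a was the mesenchyme's highest in Heyl, at 146 and 84.6 CPM, and had Notch3 at 132 and 123 CPM. The Ctnnd2-led subcluster had Notch3 at 127 and 130 CPM, with intervals that overlapped those of the Plac9-led one. Col4a1 encodes a basement membrane collagen. The levels in the Plac9-led subcluster were close to those of the perivascular cells for Heyl but far under them for Notch3.

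In the epithelium, Notch1 was highest in basal keratinocyte-like cells, at 114 and 106 CPM. The differentiated keratinocyte-like cells (13 and 15 cells) stood at 93.5 and 105.5 CPM, with intervals that overlapped those of the basal ones. The order of these was thus not resolved. In the ameloblast-like cells led by Slc24a4, Cftr and Ptchd4, which make enamel, Notch1 stood at 5.69 and 11.4 CPM, from 5 UMIs in each library. Hes1 stood at 298 and 360 CPM in that ameloblast-like subcluster and at 312 and 228 CPM in the basal keratinocyte-like cells. The highest epithelial Notch2 was in a subcluster led by Nkain3, Cadm2 and Nppc (45 and 65 cells), at 1389 CPM (1155 to 1656) and 938 CPM (805 to 1087). Its leading genes were also long, with a median span of 134 kb.

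**Figure D3:**
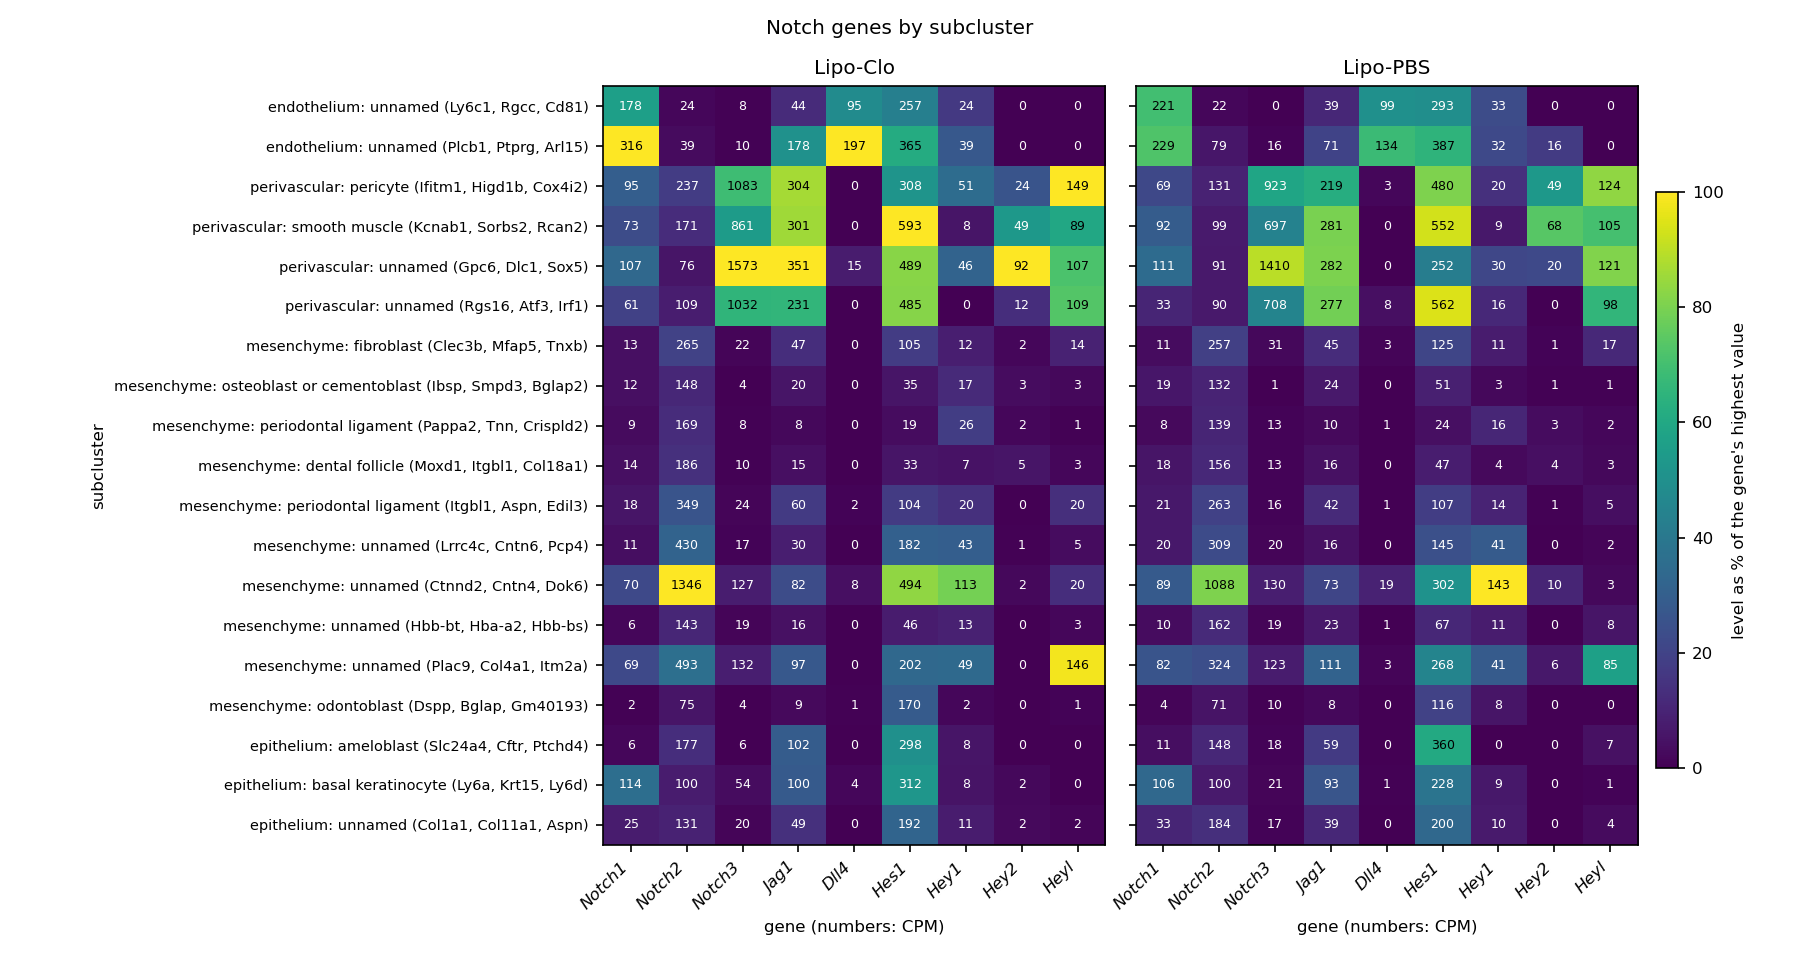
Level of each gene (columns) in each subcluster with at least 50 cells in both libraries (rows), for Lipo-Clo on the left and Lipo-PBS on the right, with the CPM written in each box and the colour giving the percent of the gene's highest value. Notch3 and Jag1 are brightest in the perivascular rows, Heyl there and in the mesenchymal row led by Plac9, Dll4 in the endothelial rows, and Notch2 in the mesenchymal row led by Ctnnd2, at 1346 and 1088 CPM.

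The genes that most resembled each member were found from Pearson's r of log2(CPM + 10) over 28 subclusters and clusters with at least 50 cells in both libraries, taking the lower of both libraries' values. These points share a library, and they differ in depth and in their number of cells, so the values are descriptions. Notch3 was most like Gucy1b1 (r = 0.943 in Lipo-Clo and 0.933 in Lipo-PBS), Gucy1a2 and Pde3a, genes of cyclic nucleotide signalling in contractile cells. Heyl was most like Ebf2 (0.944 and 0.967), and Notch3 came next (0.9005 and 0.923). Hey2 was most like Pdlim3, Mylk and Pde3a, of which Mylk encodes the kinase of myosin light chain. Dll4 was most like Pcdh17 (0.931 and 0.924), Cyyr1 and Rasgrp3. Hes1 was most like Ktn1 (0.878 and 0.857), Slmap and the ligand Jag1 (0.832 and 0.806). Jag1 itself was most like Vcl, Map3k20 and Epn2. Notch1 (Galnt18, Mtus1, Plxnd1), Notch2 (Vcan, Frem1, 4930578G10Rik) and Hey1 (Zfpm2, Nudt4, Plxna2) had no gene above 0.78 in the lower of both libraries. Among the 9, Notch3 was also like Jag1 (0.793 and 0.820) and Hey2 (0.847 and 0.726). Notch1 had lower values with Dll4 (0.661 and 0.656) and Hes1 (0.638 and 0.637). Notch2 and Dll4 had the lowest values of any pair (-0.488 and -0.273), the one in Lipo-PBS being weak.

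Whether ligand, receptor and target were seen in the same cells was read after thinning each cell to 1000 UMIs. Of the 176 Lipo-Clo perivascular cells with a Notch3 UMI, 34.1% (27.1 to 41.6) also had Hes1, against 29.5% (22.2 to 37.6) of the 146 without. In Lipo-PBS the shares were 31.0% of 274 cells and 30.2% of 232. For Jag1 they were 23.3% against 21.2% in Lipo-Clo and 22.6% against 14.7% in Lipo-PBS. Over 7 pairs of genes and both libraries, the share was higher among positive cells in 11 of 14 cases, and the intervals overlapped in each. For Dll4 with Hey2 in Lipo-Clo it was 0 of 23 against 0 of 216 cells, which has no direction. With cells thinned to 2000 UMIs the share was higher among positive cells in 7 of 14 cases. In the endothelium, Dll4-positive cells had Notch1 in 2 of 23 cases in Lipo-Clo, against 38 of the 216 negative cells, and in 5 of 20 in Lipo-PBS, against 46 of 302, so the direction differed between the libraries. Overlap of separate intervals is not a test of the difference between positive and negative cells, and no such test was made.

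The Lipo-Clo and Lipo-PBS libraries were then compared within each compartment, for the question of whether Notch genes differed where macrophages had been depleted. Ratios divide the Lipo-Clo level by the Lipo-PBS level, on the log2 scale, for genes with at least 50 UMIs over both libraries, and a gene was counted when it was at least 1.5-fold apart. In every compartment the libraries also differed in other respects. Erythroid markers, summed over 7 genes, were lower in Lipo-Clo in all 4, by most in perivascular cells (41293 against 93510 CPM, 7 of 7 genes) and by least in epithelium (36749 against 48227 CPM, 5 of 7). The neutrophil markers were higher in Lipo-Clo in all 4, from 652 against 109 CPM in endothelium to 630 against 343 CPM in epithelium. The mitochondrial share was between 0.321% and 0.687% in Lipo-Clo compartments and between 1.65% and 2.48% in Lipo-PBS ones. In perivascular cells the mesenchymal markers summed to 17954 and 17145 CPM and the epithelial markers to 2421 and 468 CPM, and in endothelium the mesenchymal markers summed to 14003 and 11660 CPM. The part of these in the ratios was not tested.

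In perivascular cells, Notch2 was the only one of the 7 genes with enough UMIs to pass 1.5-fold. It stood at 184 CPM against 121 CPM, a log2 ratio of 0.60 (0.27 to 0.94). Over all 5904 genes tested there, 7.15% were as much higher and 7.01% as much lower, so 1 of 7 is near the background. The count was 0 under several other scalings, and 50.5% of all calls were higher, against 38.1% with edgeR's TMM factors and 33.3% with totals that left out mitochondrial, haemoglobin and ribosomal protein genes. In the pericyte-like subcluster Notch2 stood at 237 against 131 CPM (0.86, 0.28 to 1.46), and in the subcluster led by Col11a1, Lum and Serpinf1 at 188 against 191 CPM (-0.02).

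Notch3 had a perivascular log2 ratio of 0.40 (0.26 to 0.54). It was higher in Lipo-Clo in 6 of the 6 perivascular subclusters with at least 50 UMIs, and the interval cleared 0 in 1 of them, led by Rgs16, Atf3 and Irf1 (1032 against 708 CPM, 0.54, 0.09 to 0.99). The smaller smooth muscle-like subcluster, with 4 and 20 UMIs, stood at 314 against 457 CPM. The share of thinned cells with a Notch3 UMI was nearly the same, 54.7% against 54.2%. Jag1 had a ratio of 0.27 (-0.01 to 0.54), Heyl of 0.15 (-0.26 to 0.56), Notch1 of 0.13 (-0.37 to 0.62), Hes1 of 0.06 (-0.15 to 0.27) and Hey2 of -0.26 (-1.05 to 0.49). The median of the 7 was 0.15, against 0.04 over all genes tested. Hey1, with 24 and 23 UMIs, stayed under the minimum. Hes1 was not even across the subclusters: it was lower in Lipo-Clo in the pericyte-like one (308 against 480 CPM, -0.64, -1.03 to -0.25) and higher in those led by Gpc6 (489 against 252 CPM, 0.96, 0.16 to 1.77) and by Col11a1 (369 against 172 CPM, 1.10, 0.51 to 1.70). The pericyte-like subcluster made up 45.4% of Lipo-Clo and 30.1% of Lipo-PBS perivascular cells.

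Leaving out the subclusters led by genes of another class (50 and 103 perivascular cells), a step chosen after seeing the data, gave ratios of 0.81 for Notch2, 0.34 for Notch3 and -0.21 for Hes1. When each library was clustered on its own, 7 of the 9 genes were past 1.5-fold higher in perivascular cells, with Notch3 at 1.34 and Heyl at 1.06, while Notch2 was not among them (0.19). The share of all genes past the limit under that clustering is not given here, so the 7 of 9 has no background beside it. In that partition only 568 of 902 Lipo-PBS perivascular cells came from the perivascular cluster of the joint partition, while 265 came from a cluster led by Pcp4, Sfrp2 and Mmp13, against 390 of 396 in Lipo-Clo.

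In the endothelium 5 genes had enough UMIs and 0 passed 1.5-fold, where 6.56% of all genes were that much higher and 9.33% that much lower. Hes1 stood at 270.0 CPM in Lipo-Clo against 358 CPM in Lipo-PBS, a ratio of -0.41 (-0.68 to -0.14). The make-up of the endothelium differed too: lymphatic-like cells, the highest in Hes1 in Lipo-PBS, were 25 of 407 cells and held 31 of the 171 Hes1 UMIs in Lipo-Clo, but were 71 of 477 cells and held 143 of 322 in Lipo-PBS. Without them, a step chosen after seeing the data, Hes1 stood at 257 against 290.5 CPM (-0.18, -0.51 to 0.15), and Notch2 at 34.8 against 56.8 CPM (-0.71, -1.59 to 0.14). Hes1 was lower in Lipo-Clo in each of the 4 endothelial subclusters with at least 50 UMIs, with no interval clear of 0. The share of Hes1 among thinned cells was 23.4% against 24.5%. Dll4 stood at 96.3 against 67.9 CPM (0.51, -0.03 to 1.04), Notch2 at 63.2 against 87.9 CPM (-0.48, -1.06 to 0.09), Jag1 at 38 against 45 UMIs (0.26, -0.40 to 0.92) and Notch1 at 197 against 187 CPM (0.08). The median of the 5 ratios was 0.08, against 0.01 over all 5243 genes tested.

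In the mesenchyme 7 genes had enough UMIs and 0 passed 1.5-fold, beside 3.74% of all genes higher and 7.63% lower. At this depth 5 of the 7 intervals cleared 0, beside 15 of 36 on the pathway list. The share of all genes with such an interval is not given here, for the mesenchyme or for its subclusters. Notch2 (263 against 220.1 CPM, 0.26, 0.18 to 0.33) and Hey1 (22.9 against 16.5 CPM, 0.47, 0.21 to 0.74) were higher in Lipo-Clo. Notch1 (14.0 against 17.8 CPM, -0.35), Notch3 (17.6 against 21.9 CPM, -0.32) and Jag1 (24.8 against 29.8 CPM, -0.27) were lower. Markers of vascular cells within the mesenchyme were lower as well, the endothelial ones at 43.9 against 77.1 CPM (10 of 10 genes) and the perivascular ones at 526 against 608 CPM (8 of 10), and their part in these ratios was not tested. Heyl stood at 6.84 against 8.25 CPM (-0.27, -0.70 to 0.16). With each subcluster set to the same share of the mesenchyme in Lipo-Clo as in Lipo-PBS, the ratios were -0.31 for Notch1, -0.12 for Notch3, 0.08 for Jag1, 0.47 for Heyl and 0.33 for Hey1. Notch3 was lower in 2 and higher in 1 of the 3 subclusters with at least 50 UMIs, with no interval clear of 0. Hey1 was higher in 2 of 3, 1 of them clear of 0, and stood at 113 against 143 CPM in the subcluster led by Ctnnd2, which held 373 of 3879 Lipo-Clo and 187 of 3836 Lipo-PBS cells. The median of the 7 was -0.27, against -0.02 over all 12949 genes tested. Notch2 was higher in 10 of 11 mesenchymal subclusters, 7 of them with an interval clear of 0. Among these were the subclusters led by Plac9 (493 against 324 CPM), Lrrc4c (430 against 309 CPM) and Ctnnd2 (1346 against 1088 CPM), and the 2 periodontal ligament-like ones, led by Pappa2 and by Itgbl1 (169 against 139 and 349 against 263 CPM). The exception was the larger of 2 subclusters led by haemoglobin genes, at 143 against 162 CPM. Hes1, with a compartment ratio of -0.08, was lower in 8 of 11 subclusters and higher in the other 3, led by Ctnnd2 (494 against 302 CPM), by Lrrc4c (182 against 145 CPM) and by odontoblast markers (170 against 116 CPM).

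In the epithelium 5 genes had enough UMIs and 0 passed 1.5-fold, where 7.91% of all genes were that much higher and 11.0% that much lower. There, too, the split moved with the scaling: 41.7% of calls were higher, against 53.6% with TMM factors and 27.5% with the reduced totals. Notch1 stood at 36.9 against 51.2 CPM (-0.47, -0.88 to -0.07). In the basal keratinocyte-like cells, the only epithelial subcluster with at least 50 Notch1 UMIs, it stood at 114 against 106 CPM (0.10, -0.41 to 0.60), and these made up 137 of 827 epithelial cells in Lipo-Clo but 210 of 707 in Lipo-PBS. With subcluster shares set equal between the libraries, the epithelial ratio was 0.01. The median of the 5 ratios was 0.09, against -0.04 over all genes tested. The other ratios ran from -0.10 for Notch2 to 0.29 for Notch3, with intervals that held 0. Notch2 was nevertheless higher in 4 of 5 epithelial subclusters, among them the one led by Nkain3 (1389 against 938 CPM, 0.57, 0.22 to 0.91). Within subclusters Jag1 was higher in the ameloblast-like cells led by Slc24a4 (102 against 59.3 CPM, 0.79, 0.14 to 1.48) and Hes1 in the basal keratinocyte-like cells (312 against 228 CPM, 0.45, 0.13 to 0.77). Hes1 ran both ways in the epithelium, higher in 3 and lower in 4 of 7 subclusters. Among the lower ones were the ameloblast-like cells led by Slc24a4 (298 against 360 CPM).

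**Figure D4:**
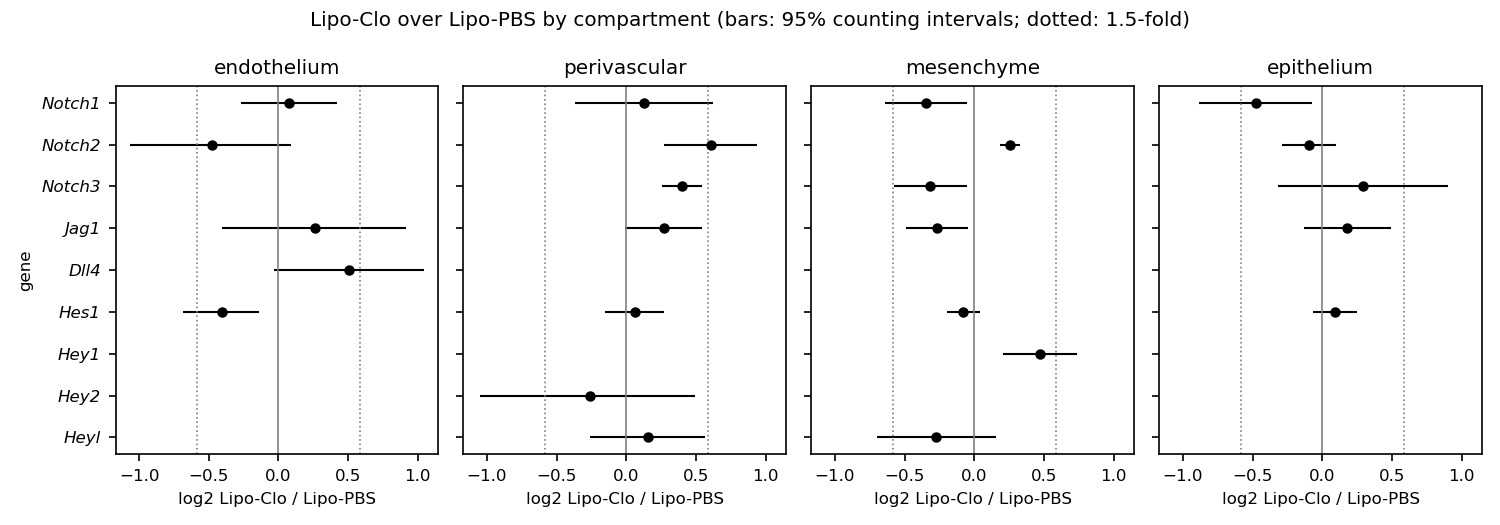
Log2 ratio of Lipo-Clo over Lipo-PBS (horizontal axis) for each gene (vertical axis) in the 4 compartments, with 95% exact intervals for 2 counts and the 1.5-fold limits as lines. Notch2 in perivascular cells (0.60) lies past the limit, and Notch3 lies at 0.40 there and at -0.32 in the mesenchyme.

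**Figure D5:**
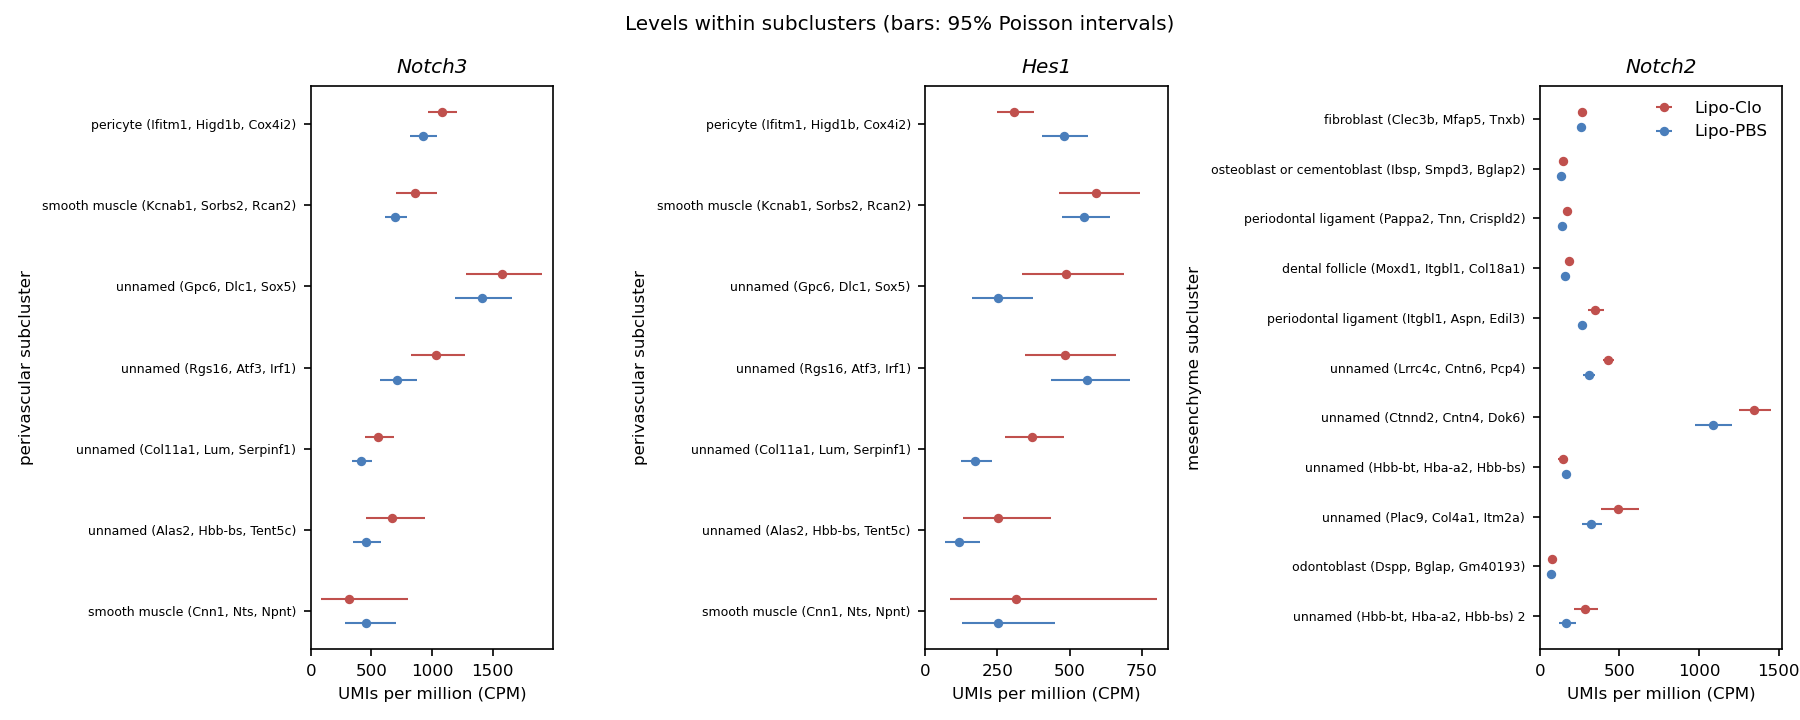
Level (horizontal axes, CPM with 95% exact Poisson bars) of Notch3 and Hes1 in the perivascular subclusters and of Notch2 in the mesenchymal subclusters (vertical axes), with 1 point per library. Notch3 is higher in Lipo-Clo in the 6 subclusters with at least 50 UMIs, Hes1 runs both ways, and Notch2 is higher in 10 of 11.

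Of the other 44 pathway genes, 21 had enough UMIs in endothelium, 21 in perivascular cells, 36 in mesenchyme and 31 in epithelium. In the endothelium 4 of 21 were past 1.5-fold higher and 2 lower, beside 6.56% and 9.33% of all genes. Notch4 (78.9 against 36.7 CPM, 1.10, 0.44 to 1.78), the ligand Jag2 (93.2 against 44.5 CPM, 1.07, 0.46 to 1.68), the fringe gene Mfng (38 against 30 UMIs, 0.85, 0.12 to 1.59) and the Notch-regulated inhibitor Nrarp (0.59, -0.13 to 1.31) were higher in Lipo-Clo. Rbpj, the DNA-binding partner, stood at 42.6 against 76.8 CPM (-0.85, -1.55 to -0.19), and Dtx1, a Deltex ubiquitin ligase, at 15.8 against 63.4 CPM (-2.01, -3.14 to -1.02). Lymphatic-like cells, with 0 Notch4 UMIs, held 13.9% of the Lipo-Clo and 31.4% of the Lipo-PBS endothelial UMIs. Without them the ratios were 0.78 (0.11 to 1.46) for Notch4, 0.71 (0.11 to 1.33) for Jag2, 0.57 (-0.17 to 1.32) for Mfng and 0.31 for Nrarp. Rbpj stood at -0.69 (-1.51 to 0.10), an interval that held 0. Mfng and Nrarp were then no longer past 1.5-fold, and Dtx1 had too few UMIs. Adam17 (1.08, 0.32 to 1.88) and Furin (0.68, 0.06 to 1.32) of the same list, named here after their values were seen, were then past 1.5-fold higher. The unnamed cluster led by Acta2, outside the endothelium, held 25 Notch4, 65 Jag2 and 38 Mfng UMIs in Lipo-PBS and 0 of each in Lipo-Clo, against 33, 40 and 30 in the Lipo-PBS endothelium. The part of that cluster in the ratios was not tested. The list's median ratio was 0.10 in the endothelium, 0.02 in perivascular cells, -0.04 in mesenchyme and 0.11 in epithelium, against 0.01, 0.04, -0.02 and -0.04 over all genes.

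In perivascular cells 2 of 21 were higher and 3 lower, beside 7.15% and 7.01% of all genes. The receptor-cleaving proteases Furin (0.74) and Adam10 (0.67) were higher, while the Notch antagonists Numb (-0.93) and Itch (-0.66) and the coactivator Maml1 (-0.68, -1.64 to 0.21) were lower. In the mesenchyme 0 of 36 were higher and 2 lower, beside 3.74% and 7.63%: Rbpj (61.1 against 93.3 CPM, -0.61, -0.74 to -0.48) and Dlk1 (23.0 against 34.9 CPM, -0.60), a non-canonical ligand. In the epithelium 3 of 31 were higher and 3 lower, beside 7.91% and 11.0%: Lfng (19.0 against 6.62 CPM, 1.52, 0.66 to 2.46), the gamma-secretase subunit gene Aph1b (0.68) and Furin (0.62) against Nrarp (-1.19), Dlk2 (-0.83) and Dlk1 (-0.64). Rbpj, named here after its values were seen, was counted 124 times against 163 in the epithelium (-0.58, -0.93 to -0.23) and at 73.4 against 72.5 CPM in perivascular cells (0.02, -0.48 to 0.51).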

How the data were processed

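The values deposited by the authors are unnormalized counts of UMIs for each gene in each cell. The submitters' processing notes name Cell Ranger 3.1.0, Seurat 3.1.1 and GRCm39 (mm39), while the file headers name Cell Ranger 8.0.0; whether counting used strand is not given in the sources used here. Notch1, Notch2, Notch3 and Dll4 overlap other annotated genes, whose reads may not be told apart from theirs.

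Cells with under 200 genes (473 Lipo-Clo, 748 Lipo-PBS) or over 20% mitochondrial UMIs (3 and 11) were left out. Scrublet's threshold called 0 and 1 doublets, so the 632 and 633 highest scores were removed. Both libraries were clustered jointly (scanpy 1.11.5, leidenalg 0.10.2, 2000 variable genes, 30 components, resolution 1), without batch correction. Sums gave CPM with exact Poisson, Clopper-Pearson and conditional intervals (scipy 1.17.1). The ratios and their intervals were tried on simulated Poisson counts, which hold counting error only and no variation between mice or cell mixtures. Alternatives used edgeR 4.0.16 and DESeq2 1.42.0 scalings only.

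The members and gene lists were chosen with earlier results of these data known, and the naming of clusters from markers and all numerical settings were fixed after the data were seen. Genes were named by rule: the members, list genes past 1.5-fold (at most 6 per compartment), 6 further receptor, ligand and fringe genes, and the 3 most similar genes. Subclusters and subcluster values in the text were chosen after they were seen.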

Additional observations from a re-analysis of the deposited data

Results flagged for a closer look

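The Lipo-Clo over Lipo-PBS difference for Notch3 ran opposite ways in perivascular cells (log2 ratio 0.40) and in mesenchyme (-0.32), and both exact intervals excluded 0. Each compartment has 1 library per condition, so the difference between them was not tested. The perivascular ratio stayed above 0 in 15 of 15 alternatives (0.28 to 1.34), and the mesenchymal one stayed below 0 in 13 of 15 (-0.38 to 0.17). Among mesenchymal subclusters with at least 50 Notch3 UMIs it was lower in 2 and higher in 1, with no interval clear of 0. The one led by Plac9, with 132 against 123 CPM, held 81 of 3879 Lipo-Clo and 178 of 3836 Lipo-PBS cells. The fibroblast-like one, with 21.8 against 31.2 CPM, held 553 and 862 cells. The one led by Ctnnd2, with 127 against 130 CPM, held more cells in Lipo-Clo, 373 against 187. Perivascular markers in the mesenchyme summed to 526 against 608 CPM. The part of these subclusters and markers in the difference was not tested. Setting each subcluster to an equal share in the libraries gave -0.12 for mesenchyme.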

How the results depend on the processing

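No paired analysis was possible because the labels give 1 library to either condition, and leaving out a replicate could not be done either. Depth limits the sparse genes: Hey1, Hey2, Heyl and Dll4 fell under 50 UMIs in 1 or more compartments. Notch3 did so in the endothelium, with 5 and 11 UMIs. Of 360 values of single members under other settings, 338 stayed within the counting interval of the reported value, 22 moved outside it and 0 called values changed sign. Only 1 reported ratio of a member, that of Notch2 in perivascular cells, was past 1.5-fold, so the 0 says little. Of 24 ratios, 12 kept their sign under each alternative. The count of leading compartments stayed within 1.5 times of the reported 17 of 18 under each alternative. This is a wide limit, as the count cannot pass 18, and the counts themselves are not given here. The 3 alternatives that left out subclusters led by another class, left out the lymphatic-like subcluster, or counted the cluster led by Pcp4 as mesenchyme, were chosen after seeing the data.

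The counts of members past 1.5-fold moved as follows. The share of all genes is not given under most of these settings, so those counts cannot be read against a background. In perivascular cells (1 reported) the count was 7 with each library clustered on its own, 2 with a cell filter of 500 genes and 10% mitochondrial UMIs, 2 at no minimum, 2 at 20 UMIs and 2 at a log2 limit of 0.36. It was 0 with TMM factors, DESeq2 size factors, reduced totals, means over cells, thinned cells, an equal mixture of subclusters or a 2-fold limit. Over all genes tested in perivascular cells, 321 were past 1.5-fold higher and 521 lower with TMM factors. The numbers were 356 and 480 with DESeq2 size factors, and 281 and 564 with reduced totals. In the endothelium (0 reported) the count of members was 1 with own clustering, thinned cells, no minimum or no lymphatic-like cells (Notch2, lower, -0.71). It was 2 with means over cells and 3 at 0.36. In the epithelium (0 reported) it was 1 with the stricter cell filter, 2 with no minimum and 1 at 0.36. In the mesenchyme (0 reported) it was 1 with own clustering, no minimum, 20 UMIs or 0.36. Co-detection was higher among positive cells in 7 of 14 cases at 2000 UMIs. Only the origin of cells under own clustering was traced; the other causes were not tested. The median of all genes moved by over 0.1 only in the epithelium with reduced totals (-0.10).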
